A study of Homo sapiens with 16 samples.

Results

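The genes described here are 40 genes of the amino acid stress response and of tRNA charging: stress transcription factors and their effectors, enzymes that make non-essential amino acids, the arginine enzymes ASS1 and ASL, cytosolic tRNA synthetases and the tRNA exporter XPOT. They were listed by name, as ATF4-linked genes, arginine enzymes and synthetases. Of the 40, 33 were listed in the deposited count table of KMS12PE (12592 genes), 38 in that of KMS27 (14560 genes) and 33 in both. Between them the tables held 15529 genes. ATF3, NUPR1, STC2, VLDLR, PSAT1, CBS and MARS were not listed in KMS12PE, and NUPR1 and MARS were not listed in KMS27. A filter on low counts left out CHAC1 in KMS12PE, so 32 and 38 genes were tested.

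KMS12PE and KMS27 are human multiple myeloma cell lines that carry the t(11;14) translocation and are sensitive to venetoclax, which blocks the anti-apoptotic protein BCL2. The study compared each parental line with clones, labelled DTEP, that were grown from single cells after a high dose of venetoclax and kept in venetoclax at 100 nM. The venetoclax dose, if any, of the parental cultures is not stated in the labels. The groups used here were KMS12PE parental and its clones A, C and D, and KMS27 parental and its clones B5, C1 and C5. Each had 2 libraries of polyadenylated RNA, 16 in all, from cells in RPMI-1640 medium with serum and L-glutamine. Each clone descends from 1 cell. Selection, single-cell origin and the drug in the medium therefore cannot be told apart. The labels do not say that the 2 libraries of a population came from separate cultures, so the p-values measure the spread between these libraries, which may be technical.

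When an amino acid runs short, uncharged tRNA activates the kinase GCN2 (EIF2AK4), which phosphorylates the translation factor eIF2. General translation then slows while translation of the ATF4 message rises, so ATF4 activity is set to a large extent after transcription. ATF4 pairs with C/EBP proteins on composite sites and raises genes for amino acid synthesis, transport and tRNA charging. Myeloma cells secrete large amounts of antibody and carry a high load of protein synthesis. PERK (EIF2AK3) joins the same pathway from the endoplasmic reticulum.

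Letters that match the core of the composite site can be read in the promoters of several of these genes. The letters TGATGNAA were searched on both strands in RefSeq promoters of GRCh38.p14, from 250 bases before to 50 bases after the start. They were found in 11 of the 31 genes with an entry (35.5%), against 4.46% of the 27305 genes in the whole table. The 11 were ATF3, CEBPG, CHAC1, ASNS, AARS, CARS, GARS, IARS, MARS, NARS and TARS. NUPR1, EIF4EBP1, PSPH, SHMT2, PYCR1, GPT2, LARS, VARS and YARS had no entry. Because the genes were listed by name, many of them as ATF4-linked, the higher share is not independent support for that link. A match is a description of the letters and not evidence of binding. The 8 windows below show how the same core recurs in a factor, an effector, a synthesis enzyme and synthetases. They read 5′ to 3′ on the strand of the gene, and capitals mark the match.
ASNS, chr7:97872458-97872487 (-): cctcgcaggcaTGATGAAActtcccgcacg
CHAC1, chr15:40953251-40953280 (+): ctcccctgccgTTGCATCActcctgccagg
ATF3, chr1:212565205-212565234 (+): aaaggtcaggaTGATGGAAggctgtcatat
CEBPG, chr19:33374060-33374089 (+): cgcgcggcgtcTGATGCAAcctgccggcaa
AARS, chr16:70289675-70289704 (-): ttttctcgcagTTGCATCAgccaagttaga
CARS, chr11:3057407-3057436 (-): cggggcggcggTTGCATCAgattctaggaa
GARS, chr7:30594834-30594863 (+): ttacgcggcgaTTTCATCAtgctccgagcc
IARS, chr9:92293692-92293721 (-): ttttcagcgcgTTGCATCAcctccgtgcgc

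Libraries of KMS12PE held 5831289 to 13674426 counts, the 2 parental ones being the smallest, and those of KMS27 held 20257318 to 52615971. A floor of 3 counts, which covers counting error only, was 0.212 to 0.527 CPM (counts scaled to library size) in KMS12PE and 0.0596 to 0.16 CPM in KMS27. All 9 plasma cell markers of a fixed list were listed in both lines, with summed levels of 2923 to 3705 CPM in KMS12PE and 5322 to 11345 CPM in KMS27. In KMS27 the lowest sums were those of clone C5 (5322 and 5513 CPM, against 9595 and 11345 CPM in the parental). There 6 of the 9 markers fell, beside 9.28% of all genes. No myeloid or erythroid marker was listed. Of the T cell markers, CD3G was listed in KMS12PE (0 to 1.76 CPM) and CD3E in KMS27 (0.508 to 2.97 CPM). EPCAM, an epithelial marker, was listed in KMS12PE alone, at 54.7 and 43.3 CPM in clone D against 102 and 106 CPM in the parental. The part of these markers in the results was not tested.

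In the fit without paired libraries few of the genes changed in KMS12PE, and those that did were lower in the clones. A gene is said to have risen, fallen or changed where the Benjamini-Hochberg adjusted p of edgeR's quasi-likelihood test, over all genes tested in a line, was under 0.05. In clone A, 0 of 32 rose and 1 fell (3.12%), beside 0.448% of all 12279 genes tested, of which 0.212% rose and 0.236% fell. In clone C, 0 rose and 4 fell (12.5%), beside 1.78% of all genes (0.904% rose and 0.880% fell). In clone D, 0 rose and 2 fell (6.25%), beside 5.16% (1.86% and 3.31%). For the mean of the 3 clones 0 rose and 2 fell (6.25%), beside 1.47% (0.358% and 1.12%). ASS1, DDIT4, PYCR1 and VARS were the 4 of 32 genes that fell in at least 1 clone, beside 6.50% of all genes that changed in at least 1. At an unadjusted p under 0.05, 1, 0 and 0 of the 32 genes were higher in A, C and D, and 2, 4 and 4 were lower. The share of all genes at that cutoff was not counted. DESeq2 called 0 higher in each. With same-numbered libraries paired, in a replicate block, 2, 4 and 6 genes changed in A, C and D (6.25%, 12.5% and 18.8%). These stand beside 3.65%, 7.08% and 16.4% of all genes, and 1 of the 6 in D was higher. The median log2 fold change of the 32 genes was 0.03, -0.07 and -0.06 in clones A, C and D, against 0, 0 and 0.01 over all genes.

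In KMS27 the share of these genes that changed lay near or under the share of all genes with edgeR, its main scaling and all 8 libraries. Of 38 genes 2 rose and 6 fell in clone B5 (21.1%), beside 21.0% of all 14088 genes (10.8% rose and 10.2% fell). In C1 0 rose and 2 fell (5.26%), beside 21.6% (11.5% and 10.1%), and in C5 0 rose and 4 fell (10.5%), beside 19.7% (10.4% and 9.28%). For the mean of the 3 clones 1 rose and 7 fell (21.1%), beside 25.8% (13.0% and 12.7%). ATF3, DDIT3, CEBPB, CEBPG, EIF4EBP1, PHGDH, GPT2, CARS and LARS changed in at least 1 clone, beside 36.3% of all genes. At an unadjusted p under 0.05, 5 genes were higher in B5, 4 in C1 and 1 in C5, and 9, 7 and 7 were lower. That cutoff was not counted over all genes. DESeq2 called 5 higher and 8 lower in B5 (34.2%, beside 22.3% of all genes), 3 and 5 in C1 (21.1%, beside 23%) and 0 and 7 in C5 (18.4%, beside 20.6%). Scaling by library totals gave 6 higher and 5 lower in B5 (28.9%, beside 19.3% of all genes) and 1 and 5 in C1 (15.8%, beside 17.5%). It gave 1 and 3 in C5 (10.5%, beside 19.2%) and 3 and 6 for the mean (23.7%, beside 22.7%). The balance in B5 therefore depended on the scaling. Median log2 fold changes were 0.04, -0.02 and -0.11 in B5, C1 and C5, against 0, -0.01 and -0.01 over all genes. Leaving out replicate 1 of clone B5 raised the calls among all genes too. It gave 17 calls for B5 itself (44.7%, beside 35.1% of all genes), of which 12 were higher and 5 lower, 10 for C1 (26.3%, beside 35.9%), 8 for C5 (21.1%, beside 30.8%) and 17 for the mean (44.7%, beside 40.6%). Without parental replicate 1 or without parental replicate 2 the B5 count was 2, the C5 count 0 and the count for the mean 1, beside 8.03% to 10.6% of all genes.

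**Figure D1:**
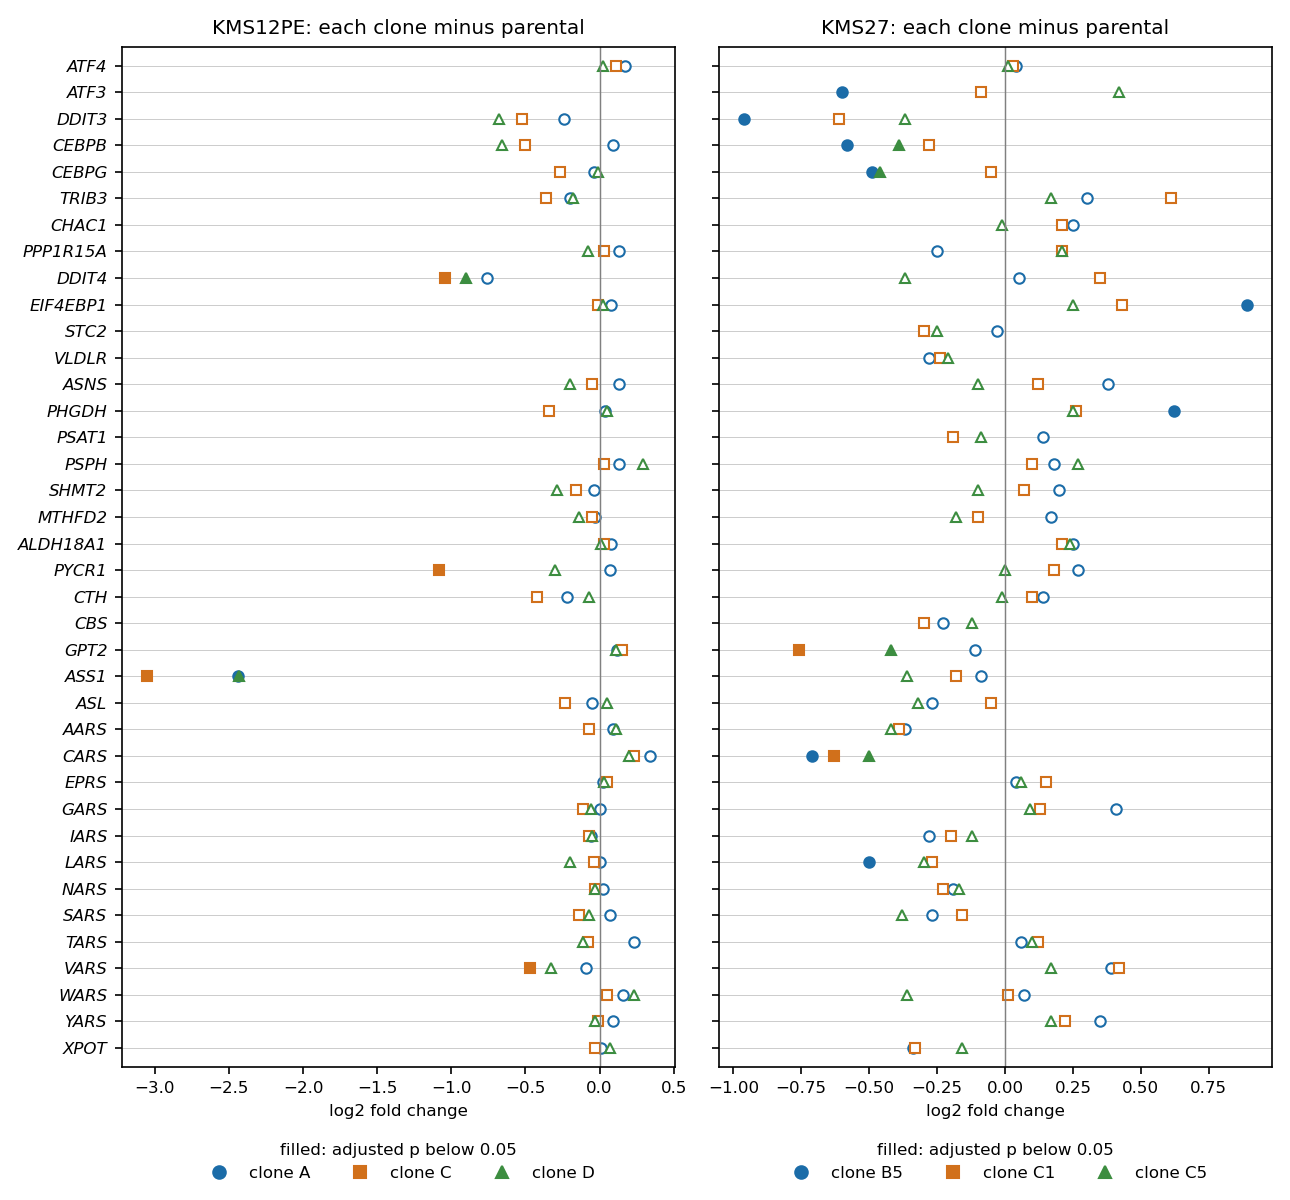
Log2 fold change of each tested gene (rows) in each clone against its parental line, KMS12PE on the left and KMS27 on the right. Symbols mark the clones and filled symbols mark an adjusted p below 0.05; ASS1 lies between -3.05 and -2.43 in the 3 KMS12PE clones, while ATF4 lies between 0.01 and 0.17 in all 6 clones.

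The pathway's central factor did not pass the test in any clone. ATF4 (chr22:39520559-39522686) encodes the transcription factor whose translation rises under amino acid shortage. Its level was 202 and 122 CPM in the 2 KMS12PE parental libraries, 179 and 185 in clone A, 173 and 177 in clone C, and 166 and 163 in clone D. In KMS27 it was 327 and 362 CPM in the parental, 336 and 372 in B5, 388 and 315 in C1, and 312 and 383 in C5. The clone libraries lay within or beside the parental values in both lines. The log2 fold change of the mean of the clones was 0.10 ± 0.15 (SE, adjusted p = 0.933) in KMS12PE and 0.03 ± 0.13 (adjusted p = 0.903) in KMS27.

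Of the 5 stress factors tested in KMS27, ATF4 included, 4 fell in B5, 2 in C5 and 0 in C1 (80%, 40% and 0%). Of all genes 10.2%, 9.28% and 10.1% fell in these clones. At an unadjusted p under 0.05, 2 were lower in C1. In each KMS12PE clone 0 of the 4 tested, ATF4 included, changed by edgeR, 0 of 4 also at an unadjusted p under 0.05, and the values lay between -0.68 and 0.17. DDIT3 (CHOP, chr12:57516588-57520517) is a pro-apoptotic factor downstream of ATF4. In KMS27 its level was 35.8 and 36.4 CPM in the parental, 21.8 and 15.1 in B5, 28.6 and 18.4 in C1, and 24.5 and 31.5 in C5. All 6 clone libraries lay below both parental libraries. The fall in B5 was 1.95-fold (log2 -0.96 ± 0.24, adjusted p = 0.0208), and the mean of the clones fell 1.56-fold (log2 -0.65 ± 0.18, adjusted p = 0.0313). C1 (-0.61, adjusted p = 0.0921) and C5 (-0.37, adjusted p = 0.312) did not pass the test. The B5 call was lost without parental replicate 1 (adjusted p = 0.0732) or 2 (0.0762), and over 14 alternatives the adjusted p ran from 0.0011 to 0.0762. The call for the mean was lost without parental replicate 1 (0.144) or 2 (0.141), without C1 replicate 2 (0.0522) and without C5 replicate 1 (0.0813), in a range from 0.00129 to 0.144. In KMS12PE DDIT3 was at 6.68 and 8.33 CPM in the parental, 5.17 and 7.43 in A, 4.58 and 5.86 in C, and 3.00 and 6.05 in D. These groups overlapped for clone A and the difference of the mean did not pass the test (log2 -0.48, adjusted p = 0.653).

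ATF3, a stress-induced repressor whose promoter holds the match shown above, was listed in KMS27 alone. It stood at 17.1 and 17.7 CPM in the parental, 11.5 and 11.4 in B5, 18.9 and 13.8 in C1, and 20.7 and 26.0 in C5. B5 was below and C5 above both parental libraries. ATF3 fell in B5 (log2 -0.60 ± 0.18, adjusted p = 0.0445), did not pass the test in C1 (-0.09) or C5 (0.42, adjusted p = 0.131), and differed among the 3 clones (adjusted p = 0.017). The B5 call was lost in 7 of 14 alternatives, among them without parental replicate 1 (0.143), parental replicate 2 (0.159), B5 replicate 2 (0.0604), C5 replicate 1 (0.0603) and C5 replicate 2 (0.0623). The difference among clones was lost without C5 replicate 2 (0.111).

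CEBPB and CEBPG, partners of ATF4 on composite sites, also fell in KMS27. CEBPB fell 1.5-fold in B5 (log2 -0.58 ± 0.12, adjusted p = 0.00932) and 1.31-fold in C5 (-0.39 ± 0.12, adjusted p = 0.048), with all 6 clone libraries below the parental ones. C1 was at -0.28 (adjusted p = 0.124). The 54 tested genes within 5 Mb of CEBPB had medians of 0.16, 0.20 and 0.13 in B5, C1 and C5. The C5 call was lost in 8 of 14 alternatives, with adjusted p from 0.014 to 0.265, and without each parental, C1 or C5 library in turn (0.117 and 0.265, 0.081 and 0.0817, 0.262 and 0.121). The B5 call was lost without parental replicate 2 (0.0781). CEBPG fell 1.4-fold in B5 (-0.49 ± 0.10, adjusted p = 0.0107) and 1.38-fold in C5 (-0.46 ± 0.10, adjusted p = 0.0141) but stood at -0.05 in C1, and it differed among the clones (adjusted p = 0.0316). Genes around CEBPG were lower as well: the 88 within 5 Mb had a median of -0.29 in B5 (20 lower, 1 higher), -0.14 in C1 and -0.37 in C5 (15 lower, 3 higher), and their part in the result was not tested. Its B5 call was lost without parental replicate 1 (0.0641) or 2 (0.0853), and its C5 call without parental replicate 1 (0.0721) or 2 (0.111) and without C5 replicate 1 (0.0636) or 2 (0.122). Its difference among clones was lost with library totals (0.105) and without each parental (0.0657 and 0.0696), C1 (0.217 and 0.0977) or C5 (0.0791 and 0.101) library in turn. For the mean of the clones CEBPB was at -0.42 (adjusted p = 0.0123) and CEBPG at -0.33 (adjusted p = 0.018). Without parental replicate 1 or 2 both were lost (0.0646 and 0.145 for CEBPB, 0.121 and 0.167 for CEBPG), and CEBPG also without C5 replicate 2 (0.0558).

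Of the effectors and feedback genes, DDIT4 fell in KMS12PE and EIF4EBP1 rose in KMS27. DDIT4 (REDD1, chr10:72273924-72276036) restrains the growth kinase complex mTORC1. In KMS12PE it stood at 16.9 and 16.8 CPM in the parental, 10.3 and 9.52 in clone A, 7.85 and 8.54 in C, and 9.62 and 8.46 in D. All 6 clone libraries lay below both parental libraries. DDIT4 fell 2.05-fold in C (log2 -1.04 ± 0.17, adjusted p = 0.0193), 1.87-fold in D (-0.90 ± 0.17, adjusted p = 0.0193) and 1.87-fold for the mean (-0.90 ± 0.14, adjusted p = 0.0153). In clone A the difference was -0.76 ± 0.17 (adjusted p = 0.143), and with the replicate block, in which same-numbered libraries are paired, it passed the test (-0.77, adjusted p = 0.0117).

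The DDIT4 calls leaned on single libraries. The mean was lost without parental replicate 1 (adjusted p = 0.158), parental replicate 3 (0.168) or clone A replicate 3 (0.0533), in a range over 13 alternatives from 0.00022 to 0.168. Clone C was lost without parental replicate 1 or 3 (0.128 each) and without clone C replicate 1 (0.164) or 3 (0.107). Clone D was lost with DESeq2 (0.0815), with its own and the parental libraries alone in the fit (0.0683), and without parental replicate 1 (0.0999), parental replicate 3 (0.0971) or clone D replicate 3 (0.113). In each of these settings DDIT4 stayed lower, between -1.1 and -0.81 on the log2 scale. In KMS27 DDIT4 was at 462 and 533 CPM in the parental, 490 and 541 in B5, 664 and 605 in C1, and 360.3 and 409 in C5. C1 lay above and C5 below both parental libraries, and the clones differed among themselves (adjusted p = 0.0247), a call lost without each C1 or C5 library in turn (0.0815 to 0.166). Against the parental line no KMS27 clone passed the test (0.05, 0.35 and -0.37).

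EIF4EBP1 encodes 4E-BP1, which binds the cap-binding factor eIF4E and holds back translation. It rose 1.85-fold in KMS27 clone B5 (log2 0.89 ± 0.18, adjusted p = 0.00818) and 1.44-fold for the mean of the clones (0.52 ± 0.15, adjusted p = 0.0307), with all 6 clone libraries above the parental ones. The B5 call was lost without parental replicate 1 (0.0735), and the call for the mean without either parental library (0.26 and 0.0831), either C1 library (0.0705 and 0.0721) or either C5 library (0.0634 and 0.0801). In KMS12PE it lay between -0.01 and 0.08 and did not pass the test. Genes within 5 Mb of EIF4EBP1 in KMS27 moved the same way in B5: the 34 such genes had a median of 0.45, and 17 rose and 1 fell. The 428 tested genes of chromosome 8 had a median of 0.41 in B5. The part of this shift in the EIF4EBP1 result was not tested. TRIB3, a pseudokinase that feeds back on ATF4, stood in KMS12PE at 30.2 and 32.2 CPM in the parental, 31.1 and 23.4 in A, 27.9 and 20.9 in C, and 31.7 and 24.0 in D. In KMS27 it was 106 and 129 CPM in the parental, 119 and 170 in B5, 213 and 144 in C1, and 127 and 136 in C5. Both C1 libraries were above the parental ones, and the difference did not pass the test (0.61, adjusted p = 0.0732).

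CHAC1, which degrades glutathione and has a match to TGATGNAA in its promoter, was nearly silent in KMS12PE. It had 5 and 5 counts in the parental libraries and 5 to 13 counts in each clone library, or 0.529 to 1.01 CPM over the clones. In KMS27 it was at 75.7 and 84.4 CPM in the parental, 89.7 and 101 in B5, 91.7 and 94.1 in C1, and 75.5 and 83.8 in C5. Both B5 and both C1 libraries were above the parental ones and neither clone passed the test (0.25 and 0.21). PPP1R15A (GADD34), which directs dephosphorylation of eIF2, and in KMS27 STC2 and VLDLR, ranged from -0.30 to 0.21 and did not pass the test in any clone.

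The enzymes of amino acid synthesis changed 1 at a time. In KMS12PE 0, 1 and 0 of 9 changed in clones A, C and D (0%, 11.1% and 0%), beside 0.448%, 1.78% and 5.16% of all genes. In KMS27 1 of 11 changed in each clone (9.09%), but not the same gene in each. This stands beside 21.0%, 21.6% and 19.7% of all genes in B5, C1 and C5. ASNS, asparagine synthetase and a classical ATF4 target, did not pass the test in any clone. It was at 72.6 and 68.0 CPM in the KMS12PE parental, 83.7 and 70.6 in A, 77.2 and 59.1 in C, and 67.5 and 55.8 in D. In KMS27 it was at 689.8 and 809 CPM in the parental, 819 and 1135 in B5, 824 and 805 in C1, and 685 and 714 in C5. Both B5 libraries lay above the parental ones but overlapped those of C1, and the log2 fold change of B5 was 0.38.

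The serine and one-carbon enzymes were mostly level. PHGDH, the first enzyme of serine synthesis (chr1:119711934-119744215), was at 642 and 734 CPM in the KMS27 parental, 911 and 1203 in B5, 815 and 828 in C1, and 789 and 846 in C5. All 6 clone libraries were above both parental ones. It rose 1.54-fold in B5 (log2 0.62 ± 0.16, adjusted p = 0.0263), and neither C1 (0.26), C5 (0.25) nor the mean (0.38, adjusted p = 0.073) passed the test. The B5 call was lost in 8 of 14 alternatives, with adjusted p from 0.000494 to 0.196: without parental replicate 1 (0.196) or 2 (0.0808), B5 replicate 2 (0.0509), either C1 library (0.0569 and 0.0572) or either C5 library (0.0616 and 0.0613), and with B5 and parental libraries alone in the fit (0.137). In KMS12PE PHGDH was at 47.1 and 28.0 CPM in the parental, 44.6 and 32.8 in A, 31.8 and 27.2 in C, and 47.0 and 31.5 in D, so the clones lay within or beside the parental pair.

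PSAT1, the next enzyme of serine synthesis, was listed in KMS27 at 988 and 1105 CPM in the parental, 1031 and 1268 in B5, 895 and 937 in C1, and 1014 and 951 in C5. SHMT2, which splits serine in mitochondria, was at 235 and 193 CPM in the KMS12PE parental, 220.1 and 196 in A, 206 and 179 in C, and 192 and 160.3 in D. In KMS27 SHMT2 was at 629 and 724 CPM in the parental, 667 and 882 in B5, 752 and 665 in C1, and 623 and 642 in C5. Of these, SHMT2 in KMS12PE clone D passed the test with the replicate block alone (-0.28, adjusted p = 0.00862, against -0.29 and 0.316 without it). MTHFD2, the mitochondrial folate enzyme beside it, was at 383 and 337 CPM in the KMS12PE parental, 369.9 and 334 in A, 379 and 316 in C, and 352 and 302 in D. In KMS27 MTHFD2 was at 661 and 748 CPM in the parental, 759 and 824 in B5, 663 and 651 in C1, and 650.3 and 592 in C5. Neither PSAT1 nor MTHFD2 passed the test in any clone.

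PYCR1, which makes the last step to proline in mitochondria (chr17:81932391-81937300), fell in 1 KMS12PE clone. It was at 249 and 205 CPM in the parental, 252 and 225 in A, 116 and 99.0 in C, and 201 and 168 in D. The clone C libraries lay far below the other 6. The fall in C was 2.12-fold (log2 -1.08 ± 0.14, adjusted p = 0.00593), and the 3 clones differed (adjusted p = 0.00228). The call in C was lost without clone C replicate 3 (-0.97, adjusted p = 0.0561) or parental replicate 1 (-0.93, adjusted p = 0.062), in a range from 2.18e-11 to 0.062. In clone D (-0.30, adjusted p = 0.293) and for the mean (-0.44, adjusted p = 0.121) the test was passed with the replicate block alone (-0.30, adjusted p = 0.00549, and -0.43, adjusted p = 2.1e-05).

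PYCR1 did not fall alone. The 74 tested genes within 5 Mb of it had a median log2 fold change of -0.98 in clone C, and 47 of them fell and 0 rose. In clones A and D these neighbours had medians of 0.07 and 0.06, and 0 of them changed. The median of all 703 tested genes of chromosome 17 in clone C was -0.02. The part of this local shift in the PYCR1 result was not tested. In KMS27 PYCR1 was at 185 and 200.4 CPM in the parental, 199.7 and 265 in B5, 237 and 199.6 in C1, and 189 and 197 in C5, and it did not pass the test.

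GPT2, the mitochondrial alanine transaminase (chr16:46884362-46931289), fell in KMS27. It was at 246 and 235 CPM in the parental, 239.6 and 205 in B5, 145 and 138 in C1, and 175 and 184 in C5. C1 and C5 lay below both parental libraries, while a B5 library lay within them. GPT2 fell 1.7-fold in C1 (log2 -0.76 ± 0.12, adjusted p = 0.00286), a call kept in 14 of 14 alternatives. The fall in C5 was 1.34-fold (-0.42 ± 0.12, adjusted p = 0.0341), and B5 did not pass (-0.11, adjusted p = 0.535). For the mean GPT2 was at -0.43 (adjusted p = 0.0097), lost without parental replicate 1 (0.132) or 2 (0.0697). The C5 call was lost with library totals (0.141), without either parental library (0.196 and 0.13), either C1 library (0.0656 and 0.0658) or either C5 library (0.195 and 0.131). The clones differed (adjusted p = 0.019), a call lost without each C1 (0.101 and 0.108) or C5 (0.0638 and 0.0631) library in turn. The 20 tested genes within 5 Mb had medians of -0.21 in C1 and -0.27 in C5. In KMS12PE GPT2 was at 48.3 and 35.7 CPM in the parental, 49.0 and 42.4 in A, 46.6 and 46.6 in C, and 46.2 and 44.1 in D. PSPH, ALDH18A1 and CTH in both lines and CBS in KMS27 ranged from -0.42 to 0.29 over the clones and did not pass the test.

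ASS1 showed the largest log2 fold changes of the 32 genes of the set tested in KMS12PE. ASS1, argininosuccinate synthase (chr9:130444707-130501274), joins citrulline and aspartate, and its absence makes some tumours depend on arginine from outside. In KMS12PE it was at 42.5 CPM (242 counts) and 117 CPM (744 counts) in the parental libraries, 17.4 and 12.3 in clone A, 10.4 and 8.96 in C, and 15.8 and 14.0 in D. All 6 clone libraries were below both parental libraries, which themselves differed 2.75-fold, the widest difference between the parental pair of any of the 32 genes. ASS1 fell 5.43-fold in A (log2 -2.44 ± 0.40, adjusted p = 0.0477), 8.27-fold in C (-3.05 ± 0.42, adjusted p = 0.00864) and 5.4-fold in D (-2.43 ± 0.41, adjusted p = 0.0101). The mean of the clones fell 6.24-fold (-2.64 ± 0.29, adjusted p = 0.00295).

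In the fit without the replicate block, ASS1 was among 8 genes of the 12279 (0.0652%) that passed the test with the same sign in each KMS12PE clone. Of all genes 0.0244% did so higher and 0.0407% lower. With the block 3.65%, 7.08% and 16.4% of all genes changed in A, C and D, against 0.448%, 1.78% and 5.16% without it. DDIT4 then fell in each clone too. How many of all genes passed in each clone with the block was not counted. The other genes of the 8 were ADAM17, CADM1 and PTPRK, which rose, and CD44, CD53, FADS1 and POU2AF1, which fell. The direction held in every setting tried, and its size depended on the parental pair: without parental replicate 3, the higher of them, the mean was -1.73 (adjusted p = 0.0193), with -1.53 in A (0.0996), -2.14 in C (0.0171) and -1.51 in D (0.0223). Without parental replicate 1 the mean was -3.18 (adjusted p = 0.000872). The call for the mean was kept in 13 of 13 alternatives. The clone A call was also lost with library totals (0.0639), without clone A replicate 1 (0.231) or 3 (0.392) and without clone C replicate 1 (0.0979) or 3 (0.0763). The clone C call was lost without clone C replicate 1 (0.0802) or 3 (0.076), and the clone D call without clone D replicate 3 (0.0504).

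The genes around ASS1 did not move with it. The 109 tested genes within 5 Mb had medians of 0.04, 0.01 and 0.02 in A, C and D. In bulk RNA, fewer cells that express a gene and less RNA per cell cannot be told apart. In KMS27 ASS1 was at 1186 and 1499 CPM in the parental, 1014 and 1510.2 in B5, 1176 and 1194 in C1, and 969.7 and 1116 in C5, with overlap and no call (mean log2 -0.21, adjusted p = 0.391). ASL, argininosuccinate lyase, takes the next step. It was at 32.1 and 41.0 CPM in the KMS12PE parental, 34.9 and 36.0 in A, 30.2 and 32.3 in C, and 42.9 and 33.7 in D. In KMS27 ASL was at 16.5 and 19.3 CPM in the parental, 11.6 and 18.1 in B5, 18.5 and 16 in C1, and 14.9 and 13.8 in C5. ASL passed the test in no clone of either line.

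The 250 bases before a RefSeq start of ASS1 (GRCh38.p14, chr9:130444457-130444706, plus strand) are shown because this gene carries the KMS12PE result. Capitals mark the matches to CCGCCC, the reverse complement of the GC box GGGCGG, and neither TGATGNAA nor the E-box CACGTG is in this window. The table holds another ASS1 promoter, from a different start, which does contain CACGTG, at base -71, and GC boxes at -157 and -99. The counts do not say which start was used. The E-box and GC box were chosen after the values were seen, and on both strands they occur in 7.26% and 45.0% of all promoters of the table.
ASS1: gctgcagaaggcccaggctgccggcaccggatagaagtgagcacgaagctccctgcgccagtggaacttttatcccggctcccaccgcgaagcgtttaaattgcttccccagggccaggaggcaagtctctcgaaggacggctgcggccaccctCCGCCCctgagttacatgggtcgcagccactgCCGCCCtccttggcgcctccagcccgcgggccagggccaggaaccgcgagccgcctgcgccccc

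**Figure D2:**
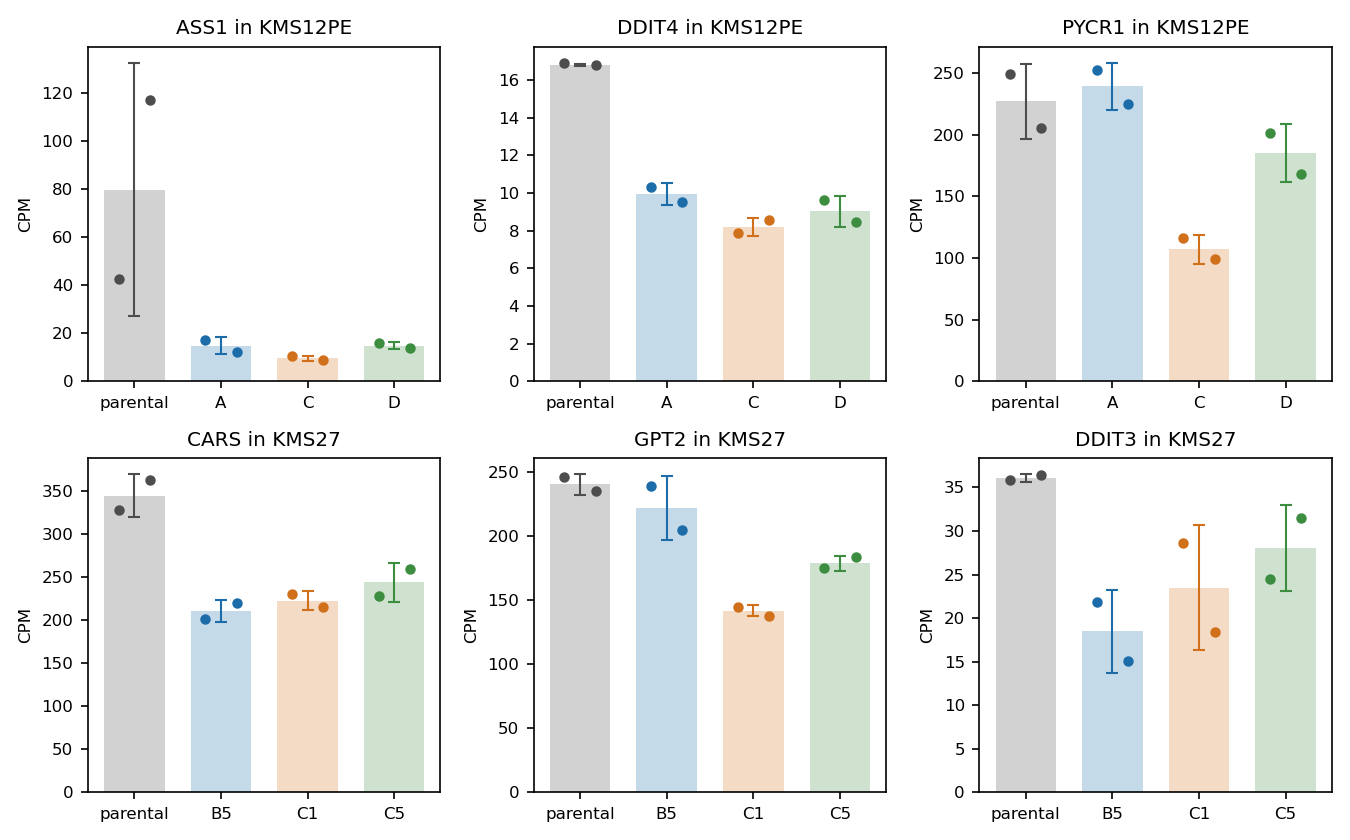
CPM of ASS1, DDIT4 and PYCR1 in KMS12PE and of CARS, GPT2 and DDIT3 in KMS27, by population. Points are the 2 libraries, bars their mean and error bars the SD; the parental ASS1 points lie at 42.5 and 117 CPM and the 6 clone points between 8.96 and 17.4 CPM.

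The tRNA synthetases attach each amino acid to its tRNA. Of the 13 synthetase and export genes tested in KMS12PE, 0, 1 and 0 fell in clones A, C and D (0%, 7.69% and 0%). Beside them 0.236%, 0.880% and 3.31% of all genes fell. The medians of the 13 were 0.02, -0.04 and -0.03. In KMS27 2, 1 and 1 of 13 fell in B5, C1 and C5 and 3 for the mean, and 0 rose, with medians of -0.19, -0.16 and -0.16. These are 15.4%, 7.69%, 7.69% and 23.1% of the 13, beside 10.2%, 10.1%, 9.28% and 12.7% of all genes that fell. CARS, the cysteine enzyme (CARS1, chr11:3000929-3057423), was the gene of the 38 that fell in each KMS27 clone, beside 8.23% of all genes that passed with the same sign in each (4.50% higher and 3.73% lower). It was at 328 and 363 CPM in the parental, 201 and 219.7 in B5, 231 and 215 in C1, and 228 and 259.6 in C5. The 6 clone libraries all lay below the parental ones. CARS fell 1.64-fold in B5 (log2 -0.71 ± 0.13, adjusted p = 0.00459), 1.55-fold in C1 (-0.63 ± 0.12, adjusted p = 0.00853) and 1.42-fold in C5 (-0.50 ± 0.12, adjusted p = 0.0219). For the mean the fall was 1.53-fold (-0.62 ± 0.10, adjusted p = 0.00227), kept in 13 of 13 alternatives.

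The C1 call of CARS was lost without parental replicate 2 (0.0711) and without C1 replicate 1 (0.0612) or 2 (0.0718). Its C5 call was lost without parental replicate 1 (0.076) or 2 (0.168) and without C5 replicate 1 (0.185) or 2 (0.0705). Genes around CARS fell too: the 81 tested genes within 5 Mb had medians of -0.83, -0.47 and -0.42 in B5, C1 and C5, with 48, 26 and 22 lower and 0, 1 and 2 higher. All 665 tested genes of chromosome 11 had medians of -0.59, -0.35 and -0.38. The part of this shift in the CARS result was not tested. In KMS12PE CARS stood at 32.7 and 26.6 CPM in the parental, 39.6 and 35.5 in A, 35.8 and 33.5 in C, and 34.4 and 33.5 in D, all 6 clone libraries above the parental ones, without a call (mean log2 0.26, adjusted p = 0.441).

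VARS, the valine enzyme (chr6:31777518-31795752), had opposite signs in the lines. In KMS12PE it was at 198 and 187 CPM in the parental, 189 and 173 in A, 133 and 143 in C, and 156 and 149 in D. C and D lay below both parental libraries. VARS fell 1.39-fold in C (log2 -0.47 ± 0.09, adjusted p = 0.0299), a call lost in 7 of 14 alternatives: without clone A replicate 1 (0.061) or 3 (0.0661), clone C replicate 1 (0.238) or 3 (0.123), parental replicate 1 (0.201) or 3 (0.123), and with clone C and parental libraries alone in the fit (0.0534). With the replicate block D (-0.33, adjusted p = 0.00366, against 0.0696) and the mean (-0.30, adjusted p = 0.00322, against 0.104) passed as well. In KMS27 VARS was at 270.2 and 294 CPM in the parental, 327 and 411 in B5, 384 and 371 in C1, and 317 and 316 in C5. All 6 clone libraries were above the parental ones, and neither a clone (0.39, 0.42 and 0.17) nor the mean (0.33, adjusted p = 0.0642) passed the test. The 192 tested genes within 5 Mb of VARS in KMS27 had medians of 0.32, 0.31 and 0.40, while the 166 in KMS12PE had a median of -0.02 in C.

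LARS and AARS, the leucine and alanine enzymes, fell in KMS27 as well. LARS fell 1.42-fold in B5 (log2 -0.50 ± 0.14, adjusted p = 0.0314) and 1.28-fold for the mean (-0.36 ± 0.11, adjusted p = 0.0427), and AARS fell 1.32-fold for the mean (-0.40 ± 0.11, adjusted p = 0.0282), with 6 of 6 clone libraries below the parental ones for each. AARS did not pass in a single clone (-0.37, -0.39 and -0.42). The 105 tested genes within 5 Mb of AARS had a median of -0.19 for the mean (21 lower, 4 higher), and the 49 around LARS a median of 0.03. The calls for the mean were lost without each parental, C1 or C5 library in turn, with adjusted p of 0.0827 to 0.283 for LARS and 0.0692 to 0.227 for AARS. The B5 call of LARS was lost without each parental library (0.118 and 0.181), B5 replicate 1 (0.0596), each C1 library (0.0611 and 0.0615) and each C5 library (0.072 and 0.0725), and with B5 and parental libraries alone in the fit (0.135). In KMS12PE LARS and AARS lay between -0.20 and 0.11 without a call. The other synthetases lay between -0.14 and 0.23 in the KMS12PE clones and between -0.38 and 0.41 in the KMS27 clones without a call. XPOT lay between -0.03 and 0.07 and between -0.34 and -0.16. WARS in KMS12PE clone D passed with the replicate block alone (0.23, adjusted p = 0.0433, against 0.413).

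**Figure D3:**
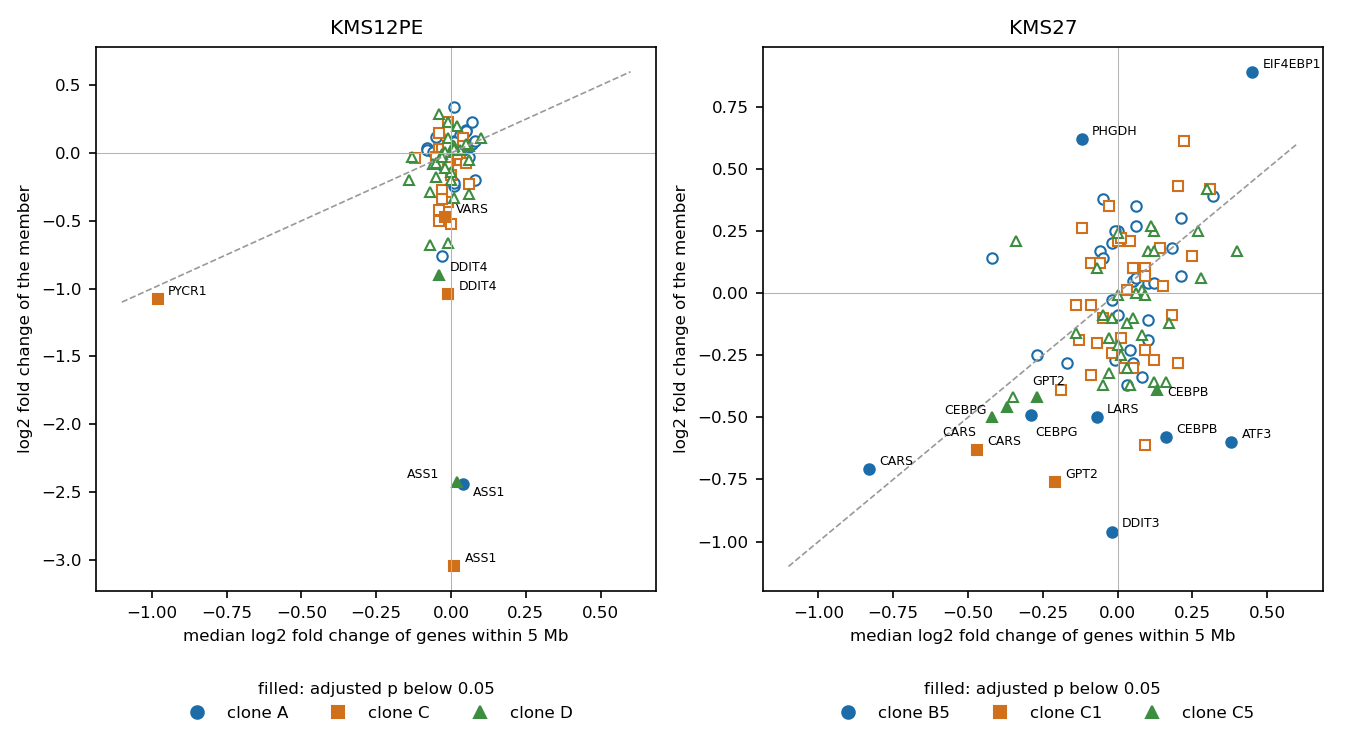
Log2 fold change of each tested gene of the set in each clone (vertical axis) against the median of the tested genes within 5 Mb of it (horizontal axis). Filled symbols mark an adjusted p below 0.05 and the dashed line marks equality; PYCR1 in KMS12PE clone C lies near the line at -1.08 against -0.98, and ASS1 in the same clone lies at -3.05 against 0.01.

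Differences among the 3 clones of a line were tested without the parental libraries in the contrast. PYCR1 was the gene of 32 that differed among the KMS12PE clones (3.12%, beside 8.22% of all genes). With the replicate block 7 genes differed (21.9%, beside 26.1% of all genes), the others being CEBPB (adjusted p = 0.0425), ASNS (0.0135), PHGDH (0.0108), SHMT2 (0.0337), TARS (0.00234) and VARS (0.000899). In KMS27 ATF3, CEBPG, DDIT4 and GPT2 differed, 4 of 38 (10.5%, beside 13.7%), and without B5 replicate 1 the count was 15 (39.5%, beside 32.0%). In KMS12PE same-numbered libraries also moved together within this set: 28 of 32 genes were higher in replicate 1 of the parental than in replicate 3, and 24, 26 and 29 in clones A, C and D. In KMS27 4 of 38 genes were higher in replicate 1 of the parental than in replicate 2, and 8, 24 and 10 in B5, C1 and C5, so C1 went the other way. The median log2 ratio of the B5 libraries was -0.21 for these genes and -0.01 for all genes. Between the parental libraries of KMS12PE the median absolute log2 ratio was 0.32 for these genes and 0.18 for all genes.

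Whether the 2 lines responded alike was tested directly, as the log2 fold change of the mean of the clones in KMS12PE minus that in KMS27, over the 11623 genes in both tables. Of 33 genes 6 differed (18.2%), 2 with a higher and 4 with a lower value in KMS12PE, beside 14.2% of all genes (6.45% higher and 7.70% lower). ASS1 differed by -2.42 ± 0.39 (-2.64 against -0.21, adjusted p = 0.00109) and DDIT4 by -0.91 ± 0.15 (-0.90 against 0.01, adjusted p = 0.0013). CARS differed by 0.88 ± 0.14 (0.26 against -0.62, adjusted p = 0.0011) and VARS by -0.61 ± 0.13 (-0.30 against 0.33, adjusted p = 0.00573). These 4 passed in 21 of 21 alternatives. With the replicate block 9 genes differed (27.3%, beside 21.8% of all genes): EIF4EBP1 (-0.48, adjusted p = 0.0374, against 0.193 without it), PHGDH (-0.42, adjusted p = 0.0484, against 0.332) and AARS (0.47, adjusted p = 0.0198, against 0.151) were added. GPT2 differed by 0.57 ± 0.16 (0.13 against -0.43, adjusted p = 0.0298), a call lost without KMS12PE clone A replicate 1 (0.0517), KMS12PE parental replicate 3 (0.202), KMS27 parental replicate 1 (0.0844) or KMS27 clone C5 replicate 1 (0.0519). PYCR1 differed by -0.58 ± 0.18 (-0.44 against 0.15, adjusted p = 0.0496), a call lost in 11 of 21 alternatives. In KMS12PE these left out clone A replicate 1 (0.0538) or 3 (0.0859), clone C replicate 3 (0.0803), clone D replicate 3 (0.0718) or parental replicate 1 (0.259). In KMS27 they left out parental replicate 1 (0.171) or 2 (0.0848), C1 replicate 1 (0.0713) or C5 replicate 1 (0.0725) or 2 (0.069), and scaling by DESeq2's size factors gave 0.051. ATF4 did not pass (0.08 ± 0.21, adjusted p = 0.847).

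The lines differed far more in the level of these genes than the clones differed from their parents. On a common scale, 29 of the 33 shared genes had every KMS27 library above every KMS12PE library (87.9%, beside 24.7% of all 11623 genes). ASL alone had every KMS27 library below (3.03%, beside 23.4%), and PYCR1, IARS and XPOT overlapped. CHAC1 spanned 0.514 to 0.975 CPM in KMS12PE and 82.6 to 111 CPM in KMS27, a parental ratio of 108. DDIT4 spanned 7.8 to 16.6 CPM and 394 to 718 CPM, a parental ratio of 33.2. These are the widest ratios of the effectors.

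ASS1 spanned 8.68 to 114 CPM in KMS12PE and 1061 to 1652 CPM in KMS27, with a parental ratio of 19.0. ASNS spanned 53.7 to 82.8 CPM and 749.6 to 1241 CPM, with a parental ratio of 12.0. Parental ratios of KMS27 to KMS12PE were 24.7 for CTH, 20.6 for PHGDH, 17.7 for PPP1R15A and 13.1 for CARS, while GPT2 was at 6.44, SHMT2 at 3.55 and MTHFD2 at 2.2. ATF4 itself had a ratio of 2.39 (119 to 199.8 CPM against 341 to 419.7), PYCR1 of 0.954 and ASL of 0.551. The lines were prepared as separate tables, so line and table cannot be told apart, and these levels are given without a test.

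**Figure D4:**
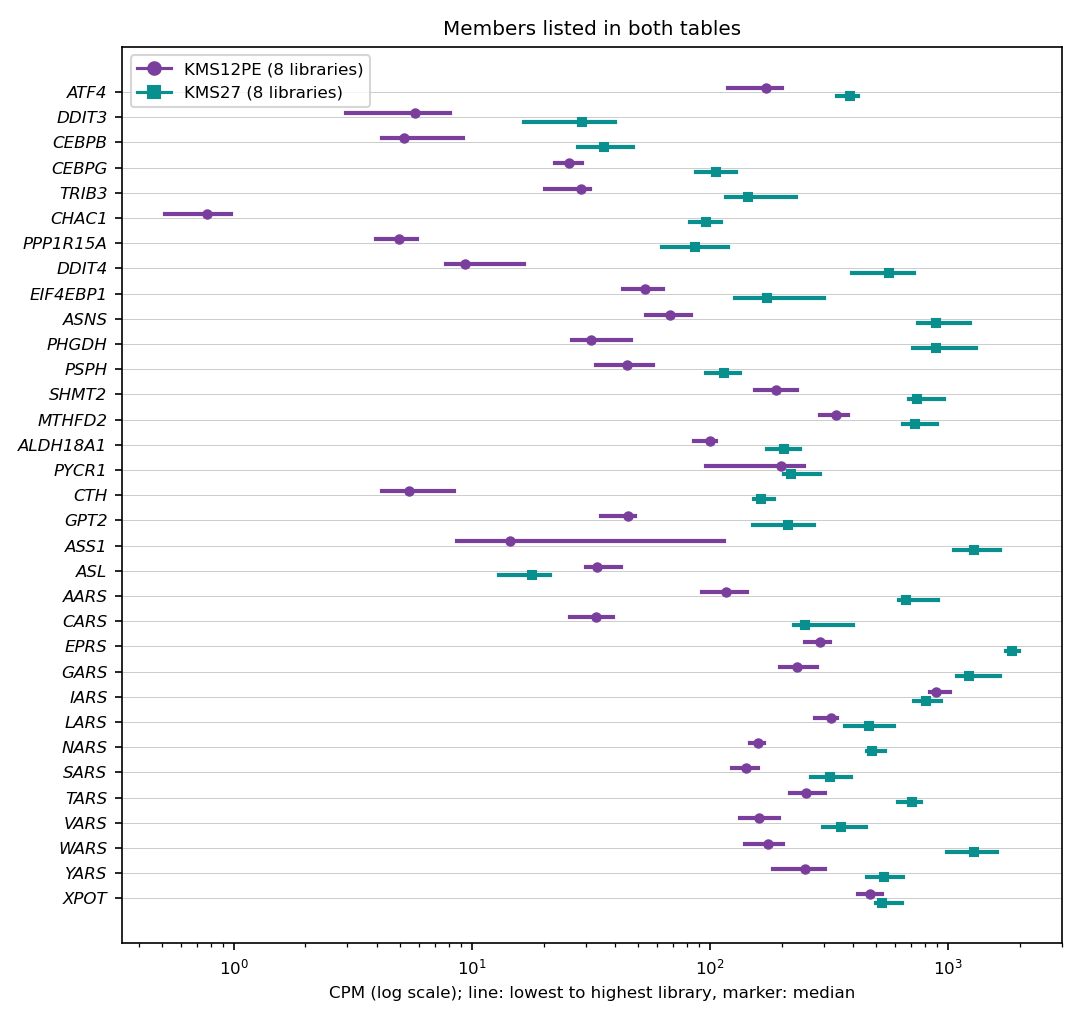
CPM on a log axis of the 33 genes listed in both tables, for KMS12PE and KMS27. Each line spans the lowest to the highest of 8 libraries and the marker is the median; CHAC1 and DDIT4 show wide gaps between the lines, ASL is lower in KMS27, and PYCR1, IARS and XPOT overlap.

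Other genes of the pathway, from fixed lists, were compared for the mean of the clones. For the genes of these lists, here and below, how the calls depend on single libraries, scaling or tool was not tested. In KMS12PE 0 genes changed in the lists of other cytosolic synthetases, mitochondrial synthetases, amino acid transporters, eIF2 kinases and machinery, other ATF4 targets, folate and glycine enzymes, and other amino acid and polyamine enzymes by edgeR. Of all genes 1.47% changed for that mean. At an unadjusted p under 0.05, 5 of these 84 genes were higher and 2 lower, a cutoff not counted over all genes. Single clones did differ in the list of other ATF4 targets. In clone C 1 of 9 rose and 1 fell, beside 0.904% and 0.880% of all genes. In D 1 fell, beside 3.31%, and 4 of 9 differed among the clones (44.4%, beside 8.22%). In KMS27 0 of 10 other cytosolic synthetases and complex genes changed (median 0.04, with 1 higher at an unadjusted p under 0.05). Of 16 mitochondrial synthetases 1 rose (6.25%), VARS2 (log2 0.48, adjusted p = 0.0106). Both counts stand beside 25.8% of all genes that changed. VARS2 lies on chromosome 6 near VARS, and the 192 tested genes within 5 Mb of VARS had a median of 0.32 for that mean (72 higher, 4 lower). The part of this shift in the VARS2 result was not tested. Of 13 amino acid transporters 1 rose and 4 fell (median -0.15), which is 38.5%, beside 25.8% of all genes. SLC36A4 (-1.58, adjusted p = 5.98e-05), SLC43A1 (-0.58, adjusted p = 0.00169) and the cystine carrier SLC7A11 (-0.76, adjusted p = 0.0103) were among those that fell. SLC36A4 and SLC43A1 lie on chromosome 11, as CARS does.

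EIF2AK3 and EIF2AK4, kinases upstream of ATF4, changed in opposite directions for the mean of the KMS27 clones. Of 17 eIF2 genes 3 rose and 2 fell (29.4%, near the 25.8% of all genes). EIF2AK3 (PERK) fell (-0.73, adjusted p = 0.000497), IMPACT, an inhibitor of GCN2, fell (-0.73, adjusted p = 0.00208), and EIF2AK4 (GCN2) rose (0.44, adjusted p = 0.00414). In each of the 3 clones EIF2S3 rose and EIF2AK3 fell, beside 4.50% and 3.73% of all genes. Of 11 other ATF4 targets 1 rose, SESN2 (0.48, adjusted p = 0.005), and 1 fell, LONP1 (-0.47, adjusted p = 0.00933). In C1 3 of these 11 rose (27.3%, beside 11.5% of all genes), and 5 of 11 differed among the clones (45.5%, beside 13.7%). Of 10 folate and glycine enzymes 4 rose and 1 fell (median 0.30), with GLDC (0.47, adjusted p = 0.00741) and TYMS (0.54, adjusted p = 0.0151) among those that rose. Of 12 amino acid and polyamine enzymes 1 rose, SMS (0.66, adjusted p = 0.0106). These counts stand beside 25.8% of all genes that changed for the mean of the KMS27 clones.

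Genes of the other arms of the endoplasmic reticulum stress response, IRE1 and ATF6, fell in KMS27. For the mean of the clones 9 of 12 genes fell and 1 rose (median -0.70), beside 12.7% of all genes that fell. In each of the 3 clones 7 of 12 fell, beside 3.73% of all genes. HSPA5 (BiP, the chaperone of the reticulum) fell by 1.06 on the log2 scale (adjusted p = 0.000268), PDIA4 by 1.00 (adjusted p = 0.000188) and EDEM1 by 0.94 (adjusted p = 0.000678). In KMS12PE 1 of 12 fell, HERPUD1 (-0.51, adjusted p = 0.00684), with a median of -0.12 and 1.47% of all genes called for that mean.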

How the data were processed

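Gene expression was measured by RNA sequencing of polyadenylated RNA in 16 libraries. The values are raw read counts per gene as deposited by the authors, 1 table per line. The reads were placed on hg38, per the submitters' processing notes; aligner, counter and use of strand were not given in the sources used here, so antisense and overlapping genes cannot be separated. Genes were matched by symbol, synthetases also by their current symbols. Every listed gene reached 5 counts in at least 4 of 8 libraries. Counts were filtered with filterByExpr (313 and 472 genes left out), scaled by TMM and tested with edgeR 4.0.16 (quasi-likelihood, 1 mean per population, all 8 libraries of a line) in R 4.3.3 with limma 3.58.1. Standard errors are the log2 fold change over the root of F and are approximate. The difference between lines was fitted over 16 libraries, and DESeq2 1.42.0 was an alternative. The biological coefficient of variation was 11.9% and 14.3%. Replicates of each population differed by more than counting noise (chi-square per degree of freedom 5.19 to 58). The fits were tested on simulated data.

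Replicate numbers come from the labels. Deviations of same-numbered KMS12PE libraries correlated at 0.254 to 0.537 for every pair, so these numbers were taken to pair the libraries there. Blocked values stand beside the KMS12PE results they change. In the test between lines the block held for the numbers of both lines. The KMS27 calls that the block adds are given at the end.

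The genes and lists were chosen with earlier results of these data known. Named by rule, with every library's value, were ATF4, DDIT3, ATF3, TRIB3, CHAC1, ASNS, PHGDH, PSAT1, SHMT2, MTHFD2, ASS1 and ASL, genes called with 1 sign in each clone of a line, genes called in a clone with a log2 fold change of at least 1, and genes called for the difference between lines. The windows of 5 Mb and the genes named from them were chosen after the values were seen. Figures used Python 3.11.15 and matplotlib 3.10.9.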

Additional observations from a re-analysis of the deposited data

Results flagged for a closer look

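6 genes had a different log2 fold change in the KMS12PE clones and in the KMS27 clones by the test of the difference itself (edgeR's quasi-likelihood test, Benjamini-Hochberg adjusted). For ASS1 the difference was -2.42 (adjusted p = 0.00109), for DDIT4 -0.91 (adjusted p = 0.0013) and for VARS -0.61 (adjusted p = 0.00573). For CARS it was 0.88 (adjusted p = 0.0011), for GPT2 0.57 (adjusted p = 0.0298) and for PYCR1 -0.58 (adjusted p = 0.0496). CARS, VARS and, in C1 and C5, GPT2 in KMS27 and PYCR1 in KMS12PE clone C stood beside neighbours within 5 Mb whose medians had the same sign, at -0.58 around CARS, 0.32 around VARS and -0.13 around GPT2 for the mean of the clones and -0.98 around PYCR1 in clone C. Medians near 0 were found around DDIT4 (-0.03, -0.01 and -0.04) and ASS1 (0.04, 0.01 and 0.02) in clones A, C and D. What these shifts contribute was not tested.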

How the results depend on the processing

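No called gene of the set changed sign under any alternative run, while the balance of higher and lower calls in B5 did (2 and 6 as reported, 6 and 5 with library totals, 12 and 5 without B5 replicate 1). The cause of these and the changes below was not tested. Counts of genes called moved as follows. With library totals, clone A had 0 (beside 0.456% of all genes) and C1 6 (15.8%, beside 17.5%). With DESeq2, clone D had 1 (3.12%, beside 4.37% of all genes) and the KMS12PE clones among themselves 2 (6.25%, beside 7.57%). B5 had 13 (34.2%, beside 22.3%), C1 8 (21.1%, beside 23%) and C5 7 (18.4%, beside 20.6%). With the replicate block, clone A had 2 (6.25%, beside 3.65% of all genes), clone D 6 (18.8%, beside 16.4%) and the KMS12PE mean 4 (12.5%, beside 6.5%). The KMS12PE clones among themselves had 7 (21.9%, beside 26.1%) and C1 had 7 (18.4%, beside 27.8%). With the clone and parental libraries alone in the fit, clone D had 1 (3.12%, beside 2.92% of all genes) and B5 1 (2.63%, beside 8.46%). In that setting C1 had 9 (23.7%, beside 34.8%) and C5 10 (26.3%, beside 31.6%). Leaving out 1 library at a time gave 0 to 1 in clone A, 0 to 4 in C, 0 to 2 in D, 1 to 2 for the KMS12PE mean, 1 in each case among the KMS12PE clones, 2 to 17 in B5, 1 to 10 in C1, 0 to 8 in C5, 1 to 17 for the KMS27 mean, 0 to 15 among the KMS27 clones and 4 to 7 between the lines. In KMS27 the correlations of same-numbered libraries ran from 0.0597 to 0.444, so the numbers were not taken as pairs there. The block gave 10 in B5 (26.3%, beside 25.8% of all genes), 6 in C5 (15.8%, beside 24.1%) and 11 for the mean (28.9%, beside 31.4%). It added GARS (adjusted p = 0.0467) and VARS (0.0484) in B5, and AARS (0.0354) and SARS (0.0321) in C5. In C1 it added DDIT3 (0.0457), TRIB3 (0.0432), EIF4EBP1 (0.0336), AARS (0.0421) and VARS (0.0322). For the mean it added PHGDH (0.0292), SARS (0.0423) and VARS (0.0394), and among the clones EIF4EBP1 (0.0193). The smaller KMS12PE libraries limit low genes such as CHAC1.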
